A study of Mus musculus with 4 samples.

Results

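The genes described here encode subunits of potassium channels that repolarise heart muscle cells, namely *Kcnj2*, *Kcnj3*, *Kcnj5*, *Kcnj11*, *Abcc9*, *Kcnd2*, *Kcnip2*, *Kcna5* and *Kcnq1*. They were chosen by name, as 9 of the 55401 genes in the expression table. No rule on level or change was used, but earlier results of these data were known. The table holds RNA-seq values from hearts of C57BL/6N mice of 8 weeks of age. There were 2 wild-type hearts and 2 *Ctcf* heterozygous hearts, with 1 library from each. The heterozygous mice carried CTCF-R567W on 1 allele, a missense change made with CRISPR/Cas9 in a zinc finger of the DNA-binding protein CTCF, and a wild-type *Ctcf* allele on the other. The comparison asks how the channel genes were expressed in adult hearts with 1 mutant allele. PolyA RNA was taken from heart tissue, so atria, ventricles and all their cell types are mixed in a value. In such tissue, fewer cells of a type and less RNA per cell cannot be told apart.

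Potassium channels let potassium leave the heart muscle cell, which ends the action potential and holds the membrane at rest. Inward rectifiers of the Kir family set the resting potential, respond to acetylcholine or respond to the energy state of the cell. Voltage-gated channels open during the action potential, and their pore-forming subunits work with auxiliary subunits that set how many channels reach the membrane and how they close. In the mouse the transient outward current carries most of the early repolarisation, and acetylcholine-activated channels are known mainly from the atria and the pacemaker.

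The values are TPM (a level relative to all transcripts of the library already divided by transcript length), as deposited by the authors. Genes of the mitochondrial genome held 61.1 to 68.6% of all TPM, with the highest share in heterozygous 1. Each library was further divided by a median-of-ratios factor, which ran from 0.818 in heterozygous 1 to 1.26 in wild-type 2. The result is called scaled TPM. Between 19916 and 20633 genes were above 0 in a library. The read depth behind TPM is unknown, so no counting error can be given. The median over all tested genes of the log2 fold change, heterozygous minus wild-type, was -0.0047 after this scaling and -0.35 before it. Removing the mitochondrial genes instead left it at -0.31, and rescaling over protein-coding genes outside the mitochondrial genome gave 0.05. *Ctcf* itself, on chromosome 8, was at 6.12 and 6.02 scaled TPM in wild-type hearts, against 7.51 and 5.76 in heterozygous hearts, which overlap (log2 fold change 0.10, adjusted p = 0.81 by limma). The mutation changes the protein and not the dose of the gene, so this level does not check the genotype labels. The 8 cardiomyocyte markers summed to between 15246 and 17933 scaled TPM, led by *Myh6*, which fits the labelled tissue. Their scaled sums overlapped between the genotypes, with 3 of the 8 genes below without overlap in heterozygous hearts and 1 above. With TPM as deposited the sums were 18790 and 20545 in wild-type hearts, against 12464 and 16199 in heterozygous hearts, without overlap.

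The promoters of the channel genes are shown for *Kcnj2*, *Kcnd2* and *Kcnip2*, which were lower in both heterozygous hearts than in both wild-type hearts and have an entry in the RefSeq promoter table of GRCm38.p6. Each is the 250 bases before the RefSeq start on the gene's own strand, read 5′ to 3′. Capitals mark the GC box GGGCGG on either strand. The windows are chr11:111065914-111066163 on the + strand for *Kcnj2*, chr6:21215096-21215345 on the + strand for *Kcnd2* and chr19:45816064-45816313 on the - strand for *Kcnip2*.
Kcnj2: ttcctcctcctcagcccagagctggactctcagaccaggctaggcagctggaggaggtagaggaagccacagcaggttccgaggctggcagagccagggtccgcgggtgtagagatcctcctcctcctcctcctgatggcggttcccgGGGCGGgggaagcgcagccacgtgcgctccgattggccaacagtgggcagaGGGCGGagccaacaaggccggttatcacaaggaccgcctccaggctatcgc
Kcnd2: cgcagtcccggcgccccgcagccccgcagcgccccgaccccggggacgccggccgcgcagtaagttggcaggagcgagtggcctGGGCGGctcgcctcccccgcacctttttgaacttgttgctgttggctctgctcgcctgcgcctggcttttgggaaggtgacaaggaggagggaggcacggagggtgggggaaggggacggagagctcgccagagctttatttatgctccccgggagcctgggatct
Kcnip2: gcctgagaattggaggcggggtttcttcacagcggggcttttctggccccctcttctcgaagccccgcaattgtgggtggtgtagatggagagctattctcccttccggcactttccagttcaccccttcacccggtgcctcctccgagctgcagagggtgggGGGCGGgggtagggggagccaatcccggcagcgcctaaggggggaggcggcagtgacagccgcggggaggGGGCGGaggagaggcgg

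The GC box, the letters that Sp1 family factors bind, was matched in 5 of the 7 channel gene promoters with an entry and in 32.7% of the 32851 promoters of the table. The TATA box TATAAA was matched in 0 of the 7 and in 12.4% of all promoters. The median promoter of the 7 held 65.6% G and C and 12 CpG dinucleotides, against 52.4% and 6 over the whole table. AGGNGGC, a stretch of the CTCF core motif, was matched in 25% of all promoters and, among the 7, in *Abcc9* at 1 position and in *Kcnip2* at 4 positions, of which 1 overlaps a GC box. The E-box CACGTG was matched in *Kcnj2* alone of the 7 and in 6.02% of all promoters. The site of GATA factors, searched as AGATAA, was matched in 0 of the 7 and in 9.99% of all promoters. All motifs were searched on both strands, and a match is a match of letters only. Per the authors, the mutated residue sits in a zinc finger for the upstream part of the CTCF motif, which was not searched. *Kcnj11* and *Kcnq1* have no entry.

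Ranked by scaled TPM, the most abundant of the channel genes in the wild-type hearts was *Kcnip2*, at 38.9 ± 3.42 (SD, n = 2). *Abcc9* and *Kcnj3* followed at 8.83 ± 0.0918 and 8.60 ± 0.832, and these neighbours overlapped between the hearts. *Kcnj11* came next at 6.48 ± 0.834 and *Kcnq1* at 2.04 ± 0.0414, each separate from the gene below it in rank. *Kcna5*, *Kcnj5* and *Kcnj2* lay below *Kcnq1* in mean. *Kcna5* was above *Kcnj2* in both hearts, while *Kcnj5* overlapped both of them and *Kcnq1*. *Kcnd2* was lowest, at 0.836 ± 0.0264. In the heterozygous hearts *Kcnj5* took rank 5 and *Kcnq1* rank 7, with *Kcna5* between them, and of all neighbours in rank *Abcc9* and *Kcnj3* alone overlapped. *Kcnip2* made up 52.1 to 56.7% of the summed TPM of the 9 genes in every library.

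**Figure D1:**
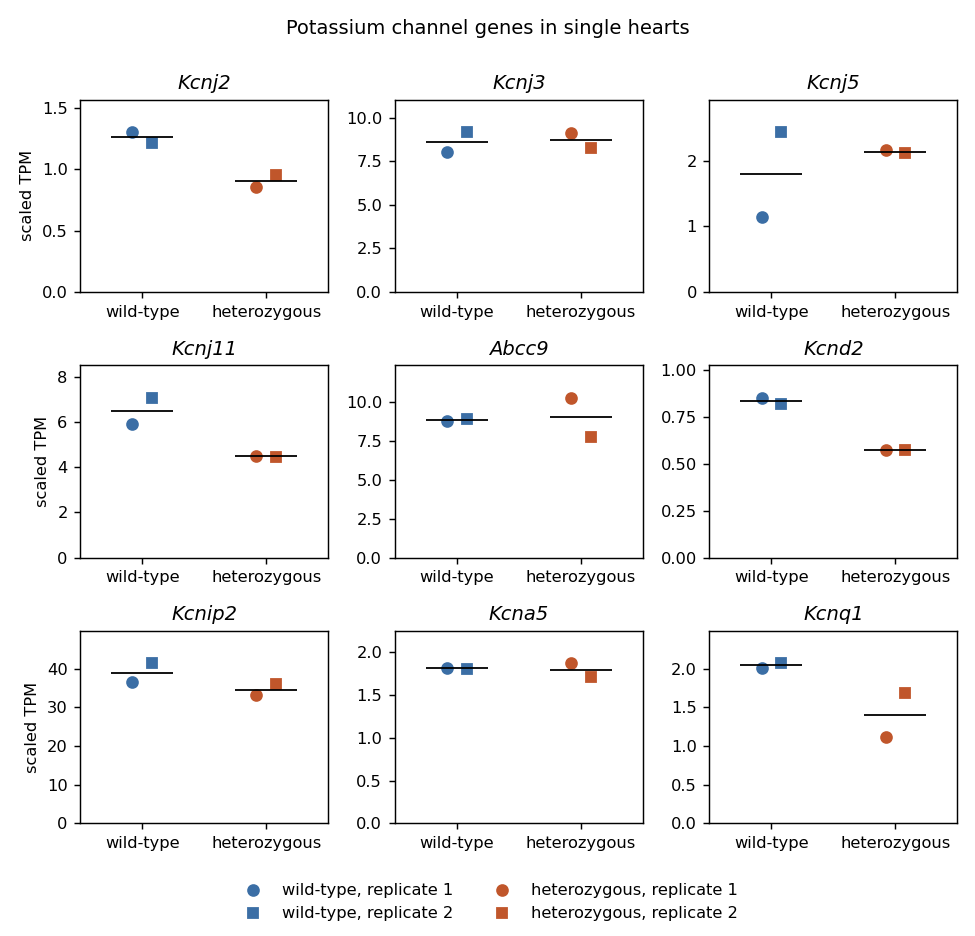
Level of each channel gene in single hearts, in scaled TPM on linear axes that start at 0, with points for the 2 wild-type (blue) and 2 heterozygous (orange) hearts, circles for replicate 1, squares for replicate 2 and a bar at the group mean. The heterozygous points lie below the wild-type points for *Kcnj2*, *Kcnj11*, *Kcnd2*, *Kcnip2* and *Kcnq1* (for *Kcnip2* the groups overlap when TPM are rescaled over protein-coding genes) and overlap them for the other 4 genes.

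No channel gene passed the test between the genotypes. Of the 9 genes, 8 reached the mean of 1 TPM needed for testing, and limma with Benjamini-Hochberg adjustment over 10036 genes called 0 of them, a call being a fold over 1.5 with an adjusted p under 0.05. Over all tested genes 0.0199% were called lower and 0% higher in heterozygous hearts. At an unadjusted p under 0.05, 1 of the 8 was lower (*Kcnj11*) and 0 were higher, against 5.71% lower and 6.49% higher over all tested genes. In 4 of the 8 (*Kcnj2*, *Kcnj11*, *Kcnip2* and *Kcnq1*) both heterozygous hearts lay below both wild-type hearts, against 23.3% of all tested genes, and in 0 of the 8 both lay above, against 23.7%. The other 4 overlapped. The median log2 fold change of the 8 was -0.09, on the log2(scaled TPM + 1) scale used for every fold change here, beside -0.0047 for all tested genes.

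These counts and the median depended on the scaling between libraries and on single hearts. With TPM as deposited, 7 of the 8 tested channel genes did not overlap and were lower in heterozygous hearts, but so were 67.8% of all tested genes, and 0 of the 8 passed the test (smallest adjusted p = 0.089, limma). With the genes of the mitochondrial genome removed (median of all genes -0.31) the count was 7, against 58.9% of all genes (smallest adjusted p = 0.069), and with TPM rescaled over protein-coding genes outside the mitochondrial genome it was 3, against 18.3%. Set against the median of all tested genes, the median of the channel genes lay at -0.09 with the scaling used here, at -0.08 with TPM as deposited, at -0.09 without mitochondrial genes and at -0.09 over protein-coding genes. Single libraries moved it further, to -0.17 without wild-type 1, -0.0073 without wild-type 2, -0.13 without heterozygous 1 and -0.098 without heterozygous 2.

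**Figure D2:**
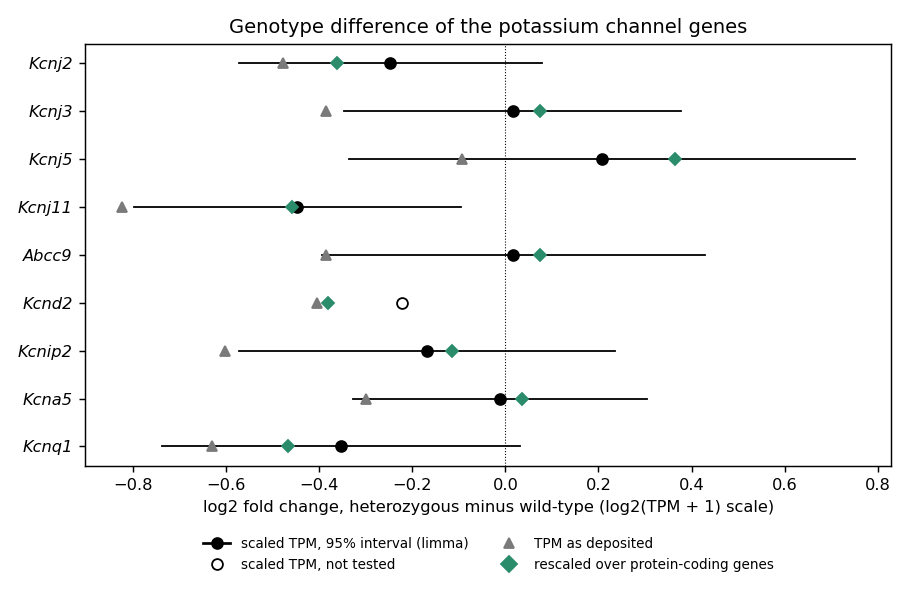
Log2 fold change of each channel gene, heterozygous minus wild-type, on the log2(TPM + 1) scale, with the 95% interval of limma over 2 hearts in each group for scaled TPM (black), and without interval for TPM as deposited (grey triangles) and TPM rescaled over protein-coding genes (green diamonds). *Kcnj11*, *Kcnq1*, *Kcnj2*, *Kcnd2* and *Kcnip2* lie below 0 in all 3, while *Kcnj3*, *Kcnj5*, *Abcc9* and *Kcna5* change sign between scalings.

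*Kcnj2* (ENSMUSG00000041695.2, chr11:111066164-111076821 on the + strand of mm10) encodes Kir2.1, the main pore of the inward rectifier current that holds the resting potential of ventricular cells. It was at 1.31 and 1.21 scaled TPM in wild-type hearts, against 0.856 and 0.952 in heterozygous hearts. The groups did not overlap, and the log2 fold change was -0.25 (SE 0.14, adjusted p = 0.48, limma). Its value was negative under each scaling, from -0.61 without mitochondrial genes to -0.21 with quantile normalization, and at a level close to 1 TPM the added 1 shrinks it. *Kcnj16*, a Kir gene 38195 bases away on chromosome 11, was listed at 0 in all libraries.

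The pair *Kcnj3* (ENSMUSG00000026824.11, chr2:55435970-55598145, + strand) and *Kcnj5* (ENSMUSG00000032034.6, chr9:32314707-32344350, - strand) encodes the subunits of the acetylcholine-activated channel, through which the vagus nerve slows the heart. *Kcnj3* was at 8.01 and 9.18 scaled TPM in wild-type hearts, against 9.10 and 8.28 in heterozygous hearts. These ranges overlap almost fully, and its log2 fold change of 0.02 (95% interval -0.35 to 0.38, adjusted p = 0.97, limma) became -0.39 with TPM as deposited and -0.30 without mitochondrial genes, which is close to the shift of all genes. *Kcnj5* was at 1.15 and 2.44 in wild-type hearts, against 2.17 and 2.11 in heterozygous hearts.

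For *Kcnj5* the difference between the wild-type hearts was larger than that between the genotypes. Its log2 fold change of 0.21 (SE 0.23, adjusted p = 0.72, limma) was -0.14 without wild-type 1, 0.53 without wild-type 2 and -0.09 with TPM as deposited. Wild-type 1 was also the lowest library for the summed atrial markers, a list of 7 genes led by *Nppa*, the atrial natriuretic peptide. The sum was 810 and 2362 scaled TPM in wild-type hearts, against 1925 and 3291 in heterozygous hearts, with 1 of the 7 genes above without overlap, 0 below and none at 0 in all libraries. With the scaling used here *Kcnj3*, which atrial cells also use, was lowest in wild-type 1 as well, by a smaller gap (8.01, with 8.28 in the next library), and *Kcna5* was not. With TPM as deposited *Kcnj3* was at 8.71 in wild-type 1, above 7.44 and 7.48 in the heterozygous hearts. The atrial sum (881) and *Kcnj5* (1.25) stayed lowest in wild-type 1 with TPM as deposited. The part of atrial tissue in these values was not tested.

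**Figure D3:**
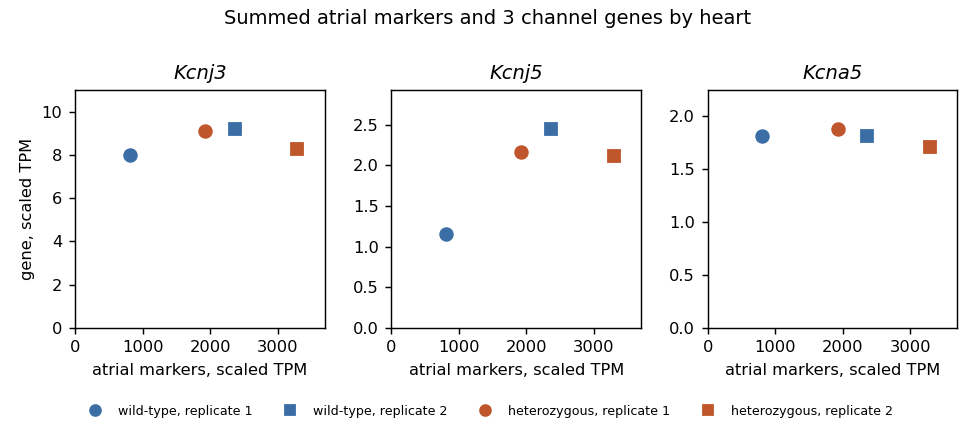
Level of *Kcnj3*, *Kcnj5* and *Kcna5* (vertical axes, scaled TPM) against the summed level of the 7 atrial markers (horizontal axes, scaled TPM) in each of the 4 hearts, wild-type blue and heterozygous orange, circles for replicate 1 and squares for replicate 2. Wild-type 1, at 810 for the atrial sum, holds the lowest *Kcnj5* value of 1.15 and the lowest *Kcnj3* value of 8.01, while its *Kcna5* value of 1.81 is level with that of wild-type 2. With TPM as deposited *Kcnj3* is not lowest in wild-type 1 (8.71, against 7.44 and 7.48 in heterozygous hearts).

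*Kcnj11* and *Abcc9* encode the pore Kir6.2 and the sulfonylurea receptor SUR2 of the ATP-sensitive potassium channel, which opens when the energy supply of the cell falls. *Kcnj11* (ENSMUSG00000096146.2, chr7:46093953-46100764, - strand) was at 5.89 and 7.07 scaled TPM in wild-type hearts, against 4.50 and 4.44 in heterozygous hearts. The heterozygous mean was 0.690 of the wild-type mean, and the groups did not overlap. Among the channel genes it had the smallest p, with a log2 fold change of -0.45 (SE 0.15, 95% interval -0.80 to -0.10) and an unadjusted p of 0.020 in limma, but it ranked 573rd by p among the tested genes and its adjusted p was 0.35. It was negative under each scaling and without any single library, from -0.82 with TPM as deposited to -0.33 without wild-type 2. Relative to the median of all genes it lay at -0.44 with the scaling used here and between -0.48 and -0.50 with TPM as deposited, without mitochondrial genes and over protein-coding genes.

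*Abcc9* (ENSMUSG00000030249.15, chr6:142587862-142702315, - strand) was at 8.76 and 8.89 scaled TPM in wild-type hearts, against 10.3 and 7.76 in heterozygous hearts, the latter on both sides of the former. Its log2 fold change was 0.02 (SE 0.17, adjusted p = 0.97, limma), -0.16 without heterozygous 1 and -0.38 with TPM as deposited. The paralogs of this pair lie beside them in the genome. *Abcc8*, encoding SUR1, ends 3758 bases from *Kcnj11* on chromosome 7 and was at 7.60, 7.37, 7.02 and 11.03 scaled TPM in wild-type 1, wild-type 2, heterozygous 1 and heterozygous 2 (log2 fold change 0.21, adjusted p = 0.69, limma), so its groups overlapped. *Kcnj8*, encoding Kir6.1, lies 16247 bases from *Abcc9* on chromosome 6 and was at 6.30, 6.47, 5.33 and 6.34 in the same order (log2 fold change -0.11, adjusted p = 0.76).

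*Kcnd2* and *Kcnip2* encode the pore Kv4.2 of the fast transient outward current and its auxiliary calcium sensor KChIP2. *Kcnd2* (ENSMUSG00000060882.5, chr6:21215503-21729805, + strand) was at 0.855 and 0.818 scaled TPM in wild-type hearts, against 0.575 and 0.576 in heterozygous hearts. It lay below the level needed for testing, with a mean TPM of 0.738, so its log2 fold change of -0.22 carries no test. The groups did not overlap, and the heterozygous mean was 0.688 of the wild-type mean. In a fit with no filter, over 24424 genes, its adjusted p was 0.63 (limma). The deposited TPM behind these values, 0.93 and 1.03 against 0.47 and 0.52, are given to 2 decimals.

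*Kcnip2* (ENSMUSG00000025221.16, chr19:45791839-45816061, - strand) was at 36.5 and 41.4 scaled TPM in wild-type hearts, against 33.1 and 36.0 in heterozygous hearts. The highest heterozygous and the lowest wild-type value nearly met, and the log2 fold change was -0.17 (SE 0.17, adjusted p = 0.69, limma). It was -0.60 with TPM as deposited and -0.11 over protein-coding genes, where the groups overlapped. Without wild-type 1 it was -0.26 and without wild-type 2 it was -0.08. The summed ventricular markers, 5 genes led by *Myl2*, were also lower in both heterozygous hearts, at 6139 and 7531 scaled TPM against 9287 and 8640 in the wild-type hearts. Of these 5 genes 3 were below without overlap and 1, *Irx4*, was above, 0 were called and none was at 0 in all libraries. The part of ventricular tissue in the *Kcnip2* and *Kcnj2* values was not tested.

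*Kcna5* (ENSMUSG00000045534.4, chr6:126532551-126535412, - strand) encodes Kv1.5, a pore of the ultrarapid delayed rectifier. It was at 1.81 and 1.81 scaled TPM in wild-type hearts, against 1.87 and 1.70 in heterozygous hearts. The wild-type values lie within the heterozygous range, and the log2 fold change of -0.01 (95% interval -0.33 to 0.30, adjusted p = 0.98, limma) became 0.04 over protein-coding genes and -0.30 with TPM as deposited, and 0.03 without heterozygous 2.

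*Kcnq1* (ENSMUSG00000009545.14, chr7:143106362-143427042, + strand) encodes KvLQT1, the pore of the slow delayed rectifier. It was at 2.01 and 2.07 scaled TPM in wild-type hearts, against 1.11 and 1.68 in heterozygous hearts. The heterozygous mean was 0.684 of the wild-type mean, with no overlap, and the log2 fold change was -0.35 (SE 0.16, adjusted p = 0.43, limma). Heterozygous 1 set much of this value, which was -0.18 without that library and -0.53 without heterozygous 2. The antisense gene *Kcnq1ot1* lies within *Kcnq1* and was at 0.06 to 0.07 TPM as deposited. Whether the counting used strand is not given in the sources used here, so reads of the pair may be split between them. *Kcne1*, its auxiliary subunit, was at 1.09 and 1.60 scaled TPM in wild-type hearts, against 0.954 and 1.77 in heterozygous hearts (log2 fold change -0.0048, adjusted p = 0.99, limma).

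Ratios of partners within a library do not depend on the scaling. The ratio of *Kcnip2* to *Kcnd2* was 42.7 and 50.6 in wild-type hearts, against 57.6 and 62.5 in heterozygous hearts. Both genotypes thus had more *Kcnip2* than *Kcnd2* transcript, and the heterozygous ratios were the higher ones (log2 difference 0.37). Taken over deposited TPM + 1, the log2 difference was -0.20, but with 1 added the ratio does depend on the scaling. Log2 fold changes of *Kcnip2* and *Kcnd2* were -0.60 and -0.41 with TPM as deposited. With the scaling used here they were -0.17 and -0.22. With 1 added, the direction thus rests on the scaling between libraries. With 0.1 added after the scaling, *Kcnip2* and *Kcnd2* were at -0.17 and -0.47. The plain ratio needs neither, and its log2 difference was 0.245 to 0.49 with any 1 library left out. *Kcnd3*, the other pore of the transient outward current, is not in this ratio. Its deposited TPM of 3.38 and 3.80 in wild-type and 4.56 and 3.44 in heterozygous hearts lay above those of *Kcnd2*. A ratio to both pores was not taken. The ratio of *Abcc9* to *Kcnj11* was 1.49 and 1.26 in wild-type hearts, against 2.29 and 1.75 in heterozygous hearts (log2 difference 0.55), again without overlap. Its log2 difference was 0.35 without heterozygous 1 and 0.74 without heterozygous 2. The ratio of *Kcnj3* to *Kcnj5* was 6.97 and 3.76 in wild-type hearts, against 4.20 and 3.92 in heterozygous hearts, which overlap (log2 difference -0.33, but 0.11 without wild-type 1 and -0.78 without wild-type 2). A two-sided exact permutation test gave p = 0.333 for the ratios without overlap, the smallest p that 2 hearts against 2 allow, and p = 1 for the third (adjusted over the 3 ratios, 0.5, 0.5 and 1).

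**Figure D4:**
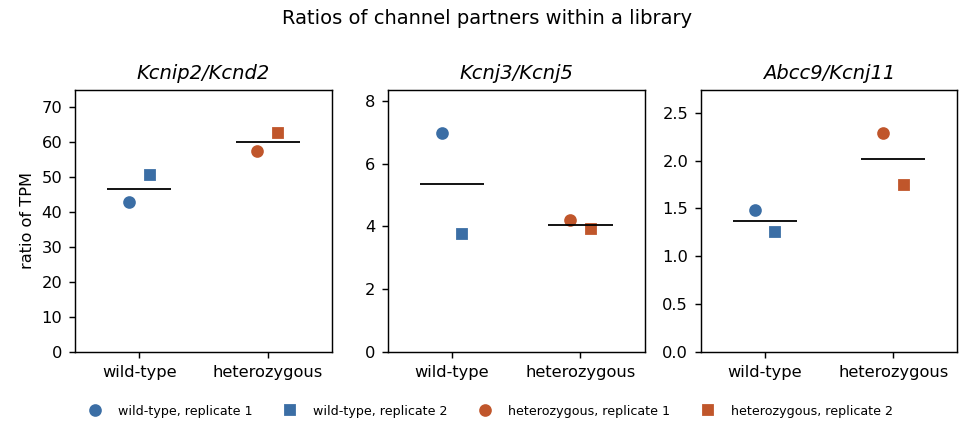
Ratio of TPM of channel partners within each library, on linear axes that start at 0, for the 2 wild-type (blue) and 2 heterozygous (orange) hearts, circles for replicate 1, squares for replicate 2 and a bar at the group mean. The heterozygous ratios lie above the wild-type ratios for *Kcnip2*/*Kcnd2* (not when 1 is added to each deposited TPM without scaling) and for *Abcc9*/*Kcnj11*, and overlap them for *Kcnj3*/*Kcnj5*.

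Profiles over the 4 hearts were compared for the partner pairs with both genes tested, which leaves out *Kcnip2* and *Kcnd2*. By Euclidean distance in centred log2(scaled TPM + 1), *Kcnj5* was the 6424th closest of 10035 genes to *Kcnj3*, and *Kcnj11* was the 7424th closest to *Abcc9*. The profile most like that of *Kcnj11* was that of *Tvp23b* (distance 0.0267), followed by *Cdh13* (0.0401) and *Fbxo32* (0.0465). *Cdh13*, which encodes T-cadherin, was at 5.44 and 6.60 scaled TPM in wild-type hearts, against 4.28 and 4.26 in heterozygous hearts. Over only 4 libraries many genes share a profile, and the likeness is given as a description.

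The other potassium channel lists held 69 genes, of which 68 were in the table and 11 reached the level needed for testing. Limma called 0 of the 11, with 3 below an unadjusted p of 0.05 and a smallest adjusted p of 0.34. In 3 of the 11 the heterozygous hearts lay below without overlap and in 2 above, and 6 overlapped, where the shares over all tested genes were 23.3% below and 23.7% above. Among the 21 other voltage-gated genes 4 were tested, with 2 below and 2 above. Of the 11 two-pore genes 1 was tested and lay below, and the tested genes of the inward rectifier (2 of 11), auxiliary (1 of 17) and calcium- or sodium-activated lists (3 of 8) all overlapped.

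*Kcnh2*, the pore of the rapid delayed rectifier, had the largest log2 fold change in size among them with the scaling used here, but not with TPM as deposited. It was at 11.6 and 15.1 scaled TPM in wild-type hearts, against 19.5 and 25.9 in heterozygous hearts, with a log2 fold change of 0.72 (SE 0.21, adjusted p = 0.34, limma). With TPM as deposited it was 0.30 and the groups overlapped. *Kcnd3*, encoding Kv4.3, the other pore of the transient outward current, was at 3.11 and 3.02 against 5.58 and 3.81 (log2 fold change 0.47, adjusted p = 0.38). Its value was 0.12 with TPM as deposited, where the groups overlapped, 0.24 without mitochondrial genes and 0.25 without heterozygous 1. The pores of the slow delayed rectifier and of Kv4.2, *Kcnq1* and *Kcnd2*, had values of the opposite sign. After these values were seen, the ratios within a library were taken, and *Kcnh2* to *Kcnq1* was 5.75 and 7.30 in the wild-type hearts against 17.5 and 15.4 in heterozygous hearts. *Kcnd3* to *Kcnd2* was 3.63 and 3.69 against 9.70 and 6.62. Since they were picked for their difference, these ratios carry no test.

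Of the remaining genes without overlap, *Kcnv2*, a silent voltage-gated subunit, was at 3.22 and 3.95 scaled TPM in wild-type hearts, against 2.86 and 1.56 in heterozygous hearts (log2 fold change -0.54, adjusted p = 0.40, limma). It was -0.24 without heterozygous 2, -0.85 without heterozygous 1 and -0.87 with TPM as deposited. *Kcnk3*, the two-pore channel TASK-1, had a log2 fold change of -0.38 (adjusted p = 0.44) and *Kcng2*, another silent subunit, one of -0.30 (adjusted p = 0.45). These were -0.22 and -0.17 without heterozygous 1, and -0.77 and -0.68 with TPM as deposited. Thus the listed and tested voltage-gated genes were split between the directions with the scaling used here.

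**Figure D5:**
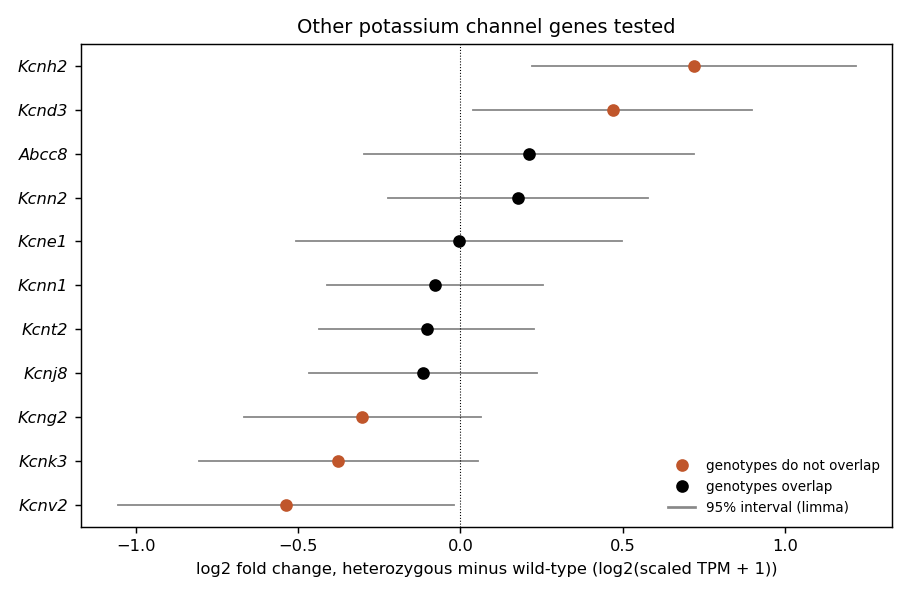
Log2 fold change, heterozygous minus wild-type, of 11 tested potassium channel genes outside the 9 described, on the log2(scaled TPM + 1) scale with the 95% interval of limma, in orange where the 2 wild-type and 2 heterozygous hearts do not overlap and in black where they do. *Kcnh2* lies highest at 0.72 and *Kcnv2* lowest at -0.54, and with TPM as deposited these are 0.30 and -0.87.

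Of 13 scaffold, anchoring and transcriptional partners of these channels 9 were tested, 0 were called, 1 lay below and 3 above without overlap, beside 23.3% and 23.7% of all tested genes. *Tbx5*, a transcription factor of the atria and conduction system, had a log2 fold change of 0.36 (adjusted p = 0.43, limma), which was 0.064 with TPM as deposited, 0.19 without mitochondrial genes and 0.16 without wild-type 1. *Irx4*, a ventricular transcription factor, had 0.19 (adjusted p = 0.58) and *Akap9*, which anchors kinase at the *Kcnq1* channel, 0.13 (adjusted p = 0.72), and these became -0.21 and -0.22 with TPM as deposited. *Cav3*, encoding caveolin of muscle, had -0.25 (adjusted p = 0.57), a value of -0.051 without heterozygous 1, -0.45 without heterozygous 2 and -0.67 with TPM as deposited. *Actn2*, the most abundant of the list, *Akap7* and *Dlg1* overlapped, with log2 fold changes of 0.16, 0.28 and -0.19 (adjusted p = 0.77, 0.68 and 0.73).

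Marker lists of other cell types were summed in each heart, and limma called 0 genes in any of the 12 lists. Endothelial markers were higher in both heterozygous hearts (306 and 352 against 276 and 277 scaled TPM), a sum carried by *Egfl7*. Of the 8 genes 4 lay below and 2 above, the other genes without *Egfl7* summed to 71.2 and 75.0 against 79.0 and 83.8, lower without overlap, and with TPM as deposited the whole sums overlapped. Fibroblast markers were lower (64.9 and 69.1 against 70.4 and 93.5), with 3 of 8 genes below and 0 above. Without *Dcn*, their highest gene, the sums overlapped (44.2 and 40.0 against 40.7 and 48.4). The adipocyte list was also lower (289 and 329 against 377 and 412). *Fabp4*, its only tested gene, carried nearly all of that sum, and without it the sums overlapped (0.110 and 0.232 against 0.579 and 0.183). Mural cell markers (58.0 to 81.5), macrophage markers (20.8 to 28.8), neuron and Schwann cell markers (3.07 to 4.67) and conduction system markers (2.71 to 4.16, with *Isl1* at 0 in all libraries) overlapped. With TPM as deposited, mural (47.4 and 66.7 against 88.6 and 92.7), macrophage (17.0 and 26.0 against 26.4 and 31.4) and conduction sums (3.40 and 2.45 against 3.89 and 4.09) were lower without overlap. So were 67.8% of all tested genes with TPM as deposited, while the neuron and Schwann cell sums still overlapped. Erythroid markers stood at 2120 in heterozygous 2 and at 930 to 987 in the other 3. Skeletal muscle markers overlapped (58.7 to 95.1), with *Myh1*, *Myh2* and *Myh4* at 0 in all libraries. The part of these cell types in the channel values was not tested.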

How the data were processed

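Gene expression was measured by RNA-seq of polyA RNA from 2 wild-type and 2 *Ctcf* heterozygous hearts. The authors deposited TPM per gene. Per the methods and the labels, reads were trimmed with Trim Galore (0.6.10), aligned to mm10 with STAR (2.7.4a) and quantified with RSEM (1.2.28). The annotation release is not given in the sources used here. TPM keep no depth, so no count model was fitted and the depth per sample is unknown. The authors tested read counts with DESeq2, and those counts were not analysed here.

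The 4 columns were matched to libraries by genotype, age and replicate number. TPM were divided by a median-of-ratios factor over genes above 0 in all libraries that averaged 1 TPM or more, and log2 was taken after adding 1. The fit, by limma, took genes averaging 1 TPM or more (3.58.1, R 4.3.3; lmFit, eBayes with trend, two-sided, prior degrees of freedom 4.64), with Benjamini-Hochberg adjustment; a call needed a fold over 1.5 and an adjusted p under 0.05. The script was tested on simulated data. No statement says that the hearts came from separate litters, so p-values refer to these hearts only. In limma the spread of a gene between the hearts (residual degrees of freedom 2) is pooled with a prior spread taken over all tested genes. Coordinates are those of GENCODE M21 on mm10, which holds 55141 of the 55401 identifiers. Promoter sequences are from RefSeq. Tables and plots used Python (3.11.15), pandas (2.3.3) and matplotlib (3.10.9).

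The channel genes and the lists were chosen with earlier results of these data known. Of the other channel and partner lists 3 genes are not reported here and enter no list count, although they stayed in the fit. Named genes are the 9 channel genes, *Ctcf*, up to 12 genes of the other channel and partner lists with the largest difference without overlap, the 5 with the highest mean TPM, the highest gene of each marker list where given, and the 3 genes closest to the channel gene with the smallest p. *Abcc8*, *Kcnj8*, *Kcnj16*, *Kcne1*, *Kcnq1ot1* and the marker genes listed at 0 were added after values were seen. So were the marker sums without *Egfl7*, *Dcn*, *Fabp4* or *Acta1* and the ratios *Kcnh2*/*Kcnq1* and *Kcnd3*/*Kcnd2*. Alternatives tried were other scalings, pseudocounts, filters, priors, a replicate block, a stricter threshold and leaving out each library.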

Additional observations from a re-analysis of the deposited data

How the results depend on the processing

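Of the channel genes 0 were called under any setting tried. Over all genes, 2 were called lower and 0 higher with the settings used. These counts were 11 and 2 with TPM as deposited, 12 and 2 without mitochondrial genes, 4 lower with a pseudocount of 0.1, 0 lower with no filter and 2 higher with a robust prior. Leaving out 1 library gave 4 to 21 lower and 1 to 12 higher. The groups share replicate numbers, and whether same-numbered hearts also shared a litter or a preparation is not stated. Same-numbered deviations correlated at 0.101. A fit with replicate number as a block called 7 genes lower and 3 higher, no channel gene was called and *Kcnj11* had an adjusted p of 0.28 (limma).

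The direction of these log2 fold changes turned with TPM as deposited: *Kcnj3* -0.39, *Kcnj5* -0.094, *Abcc9* -0.38, *Irx4* -0.21, *Akap9* -0.22, *Actn2* -0.29 and *Akap7* -0.13. Without mitochondrial genes it turned for *Kcnj3* (-0.30), *Abcc9* (-0.30), *Irx4* (-0.12), *Akap9* (-0.15), *Actn2* (-0.18) and *Akap7* (-0.031), and over protein-coding genes for *Kcna5* (0.035). Without wild-type 1 it turned for *Kcnj3* (-0.076) and *Kcnj5* (-0.14), without heterozygous 1 for *Kcnj3* (-0.043), *Abcc9* (-0.16) and *Akap7* (-0.15), and without heterozygous 2 for *Kcna5* (0.031), *Actn2* (-0.030) and *Dlg1* (0.085). Over the libraries left out, *Kcnj3* ran from -0.076 to 0.10, *Kcnj5* from -0.14 to 0.53, *Abcc9* from -0.16 to 0.20, *Kcna5* from -0.055 to 0.031, *Kcnd2* from -0.23 to -0.20, *Actn2* from -0.030 to 0.35, *Akap7* from -0.15 to 0.72 and *Dlg1* from -0.46 to 0.085.

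*Kcnd2*, with no test, was -0.41 with TPM as deposited, -0.58 without mitochondrial genes, -0.38 over protein-coding genes, -0.47 with a pseudocount of 0.1 and -0.066 with 5. The median of the channel genes was -0.43 with TPM as deposited and -0.40 without mitochondrial genes. The count lower without overlap was 7 in both, and 2 at a mean TPM of at least 5, where only 4 channel genes were tested. The *Kcnip2*/*Kcnd2* log2 difference was -0.20 over deposited TPM + 1, without scaling. Quantile normalization gave no value for *Kcnd2*, and *Kcnj2* was below the filter without wild-type 2. Rescaling after genes were removed raised the TPM of the rest, so the added 1 weighed less there. Log2 fold changes with and without such rescaling are therefore not on the same scale, and fewer genes or libraries entered some fits. Beyond this the cause of these shifts was not tested. The unknown depth limits what can be said of genes near 1 TPM.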
